A study of Panax japonicus with 5 samples.

Results

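The dammarane branch of ginsenoside biosynthesis was followed here through 3 of the 135235 unigenes assembled for *Panax japonicus*. TR39742|c0_g1 and TR71337|c0_g1 carry the label dammarendiol synthase, and TR49263|c0_g1 is annotated as CYP716A53v2. They were taken by identifier, from the labels the study gave them, and not by a rule on their measured values. Earlier results of these data were known at that point. RNA of flower, rhizome_O (the old rhizome, which the methods place at the sixth bud from the stem), rhizome_Y (the young rhizome, at the first bud scar below the stem), secRoot (the secondary root) and leaf was sequenced from 1 plant of 7 years that grew outdoors in a medicinal plant garden, with 1 library per tissue and no treatment. All tissues thus share 1 genotype, and without a second library of any tissue no test was possible. Intervals are exact 95% intervals that cover counting error only.

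Ginsenosides are glycosides of triterpenes. Dammarendiol synthase, an oxidosqualene cyclase, folds oxidosqualene into dammarenediol-II, the first dammarane, while beta-amyrin synthase folds the same substrate into the oleanane backbone. In *P. ginseng*, cytochrome P450 enzymes then oxidize dammarenediol-II to protopanaxadiol and protopanaxadiol to protopanaxatriol, and CYP716A53v2 is the hydroxylase of the last of these steps. In the oleanane branch of that species, CYP716A52v2 oxidizes beta-amyrin. Glycosyltransferases add the sugars afterwards. That function in *P. japonicus* rests on annotation alone for all unigenes named here, and the unigene of the step from dammarenediol-II to protopanaxadiol was not analysed here.

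The libraries held from 2403221 (flower) to 4920387 (secRoot) counts, where a count is a read pair assigned to a contig. Unigenes annotated as ribulose-bisphosphate carboxylase, which fixes carbon dioxide in green tissue, were taken from a list that may be partial and added up to FPKM 6026 in leaf and 967 in flower, against 42.7 or less in the 3 underground tissues. FPKM is the number of fragments per kilobase of effective contig length, scaled to the depth of the library. The leaf library stood apart: of 13683 unigenes with FPKM of at least 10 in each of the 4 other tissues, 87.3% were below FPKM 1 in leaf. The part of this in the leaf levels of the 3 unigenes was not tested.

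The hydroxylase was most abundant in the flower, whereas both cyclases were most abundant in the young rhizome. Each of the 3 unigenes consisted of 1 contig, and no other unigene came from the same Trinity component. TR39742|c0_g1 was 1918 bp long, TR71337|c0_g1 587 bp and TR49263|c0_g1 1443 bp. Over all libraries they held 694, 258 and 94 counts in this order, so that the values of the hydroxylase have the widest intervals.

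TR49263|c0_g1 (CYP716A53v2) had FPKM 14.13 in flower (44 counts, interval 10.3 to 19.0), 5.25 in rhizome_O (23 counts, 3.33 to 7.88), 4.36 in rhizome_Y (16 counts, 2.49 to 7.08), 1.41 in secRoot (9 counts, 0.646 to 2.68) and 0.33 in leaf (2 counts, 0.0406 to 1.21). The flower interval lay above those of all other tissues. Its flower level was 2.69 times that of rhizome_O (1.59 to 4.67), 3.24 times that of rhizome_Y (1.79 to 6.15) and 10 times that of secRoot (4.83 to 23.3). The rhizomes differed by less than counting error, with a ratio of 1.20 for rhizome_O over rhizome_Y (0.609 to 2.44). Both exceeded the secondary root, by 3.72-fold in rhizome_O (1.66 to 9.14) and by 3.09-fold in rhizome_Y (1.29 to 7.94). The secondary root and the leaf were not distinguishable at this depth, at a ratio of 4.27 (0.884 to 40.6).

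TR39742|c0_g1, the longer of the dammarendiol synthase unigenes, had FPKM 11.75 in flower (50 counts, 8.72 to 15.5), 33.41 in rhizome_O (200 counts, 28.9 to 38.4), 48.61 in rhizome_Y (244 counts, 42.7 to 55.1), 22.86 in secRoot (199 counts, 19.8 to 26.3) and 0.12 in leaf (1 count, 0.00310 to 0.682). The order was rhizome_Y, rhizome_O, secRoot, flower and leaf, and each step was larger than counting error. Flower stood at 0.242 of rhizome_Y (0.175 to 0.329), 0.352 of rhizome_O (0.253 to 0.482) and 0.514 of secRoot (0.369 to 0.704). Rhizome_O stood at 0.687 of rhizome_Y (0.567 to 0.832) and at 1.46 times secRoot (1.20 to 1.79), and rhizome_Y at 2.13 times secRoot (1.76 to 2.58).

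TR71337|c0_g1 followed the same order of tissues. It had FPKM 22.71 in flower (24 counts, 14.6 to 33.8), 46.50 in rhizome_O (69 counts, 36.2 to 58.9), 74.80 in rhizome_Y (93 counts, 60.4 to 91.6), 33.39 in secRoot (72 counts, 26.1 to 42.0) and no count in leaf, where the exact interval reached 1.82 and a floor of 3 counts, set for a count of 0, equals FPKM 1.48. Flower stood at 0.304 of rhizome_Y (0.185 to 0.480) and 0.488 of rhizome_O (0.293 to 0.787), and rhizome_O at 0.622 of rhizome_Y (0.449 to 0.858). With fewer counts than TR39742|c0_g1, 2 of the steps stayed within counting error: rhizome_O over secRoot was 1.4 (0.986 to 1.97), and flower over secRoot was 0.680 (0.410 to 1.09). Against that floor of 3 counts in leaf, rhizome_Y was at least 50.4-fold higher and flower at least 15.3-fold higher, bounds that would be lower against the upper end of the exact interval. TMM scaling over all 5 libraries, in which the leaf library took a factor of 0.0651, turned some directions: rhizome_O over rhizome_Y became 4.53 for TR39742|c0_g1 and 4.1 for TR71337|c0_g1, and flower over rhizome_O became 0.227 for TR49263|c0_g1. With factors computed without leaf, no ratio left its interval.

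**Figure D1:**
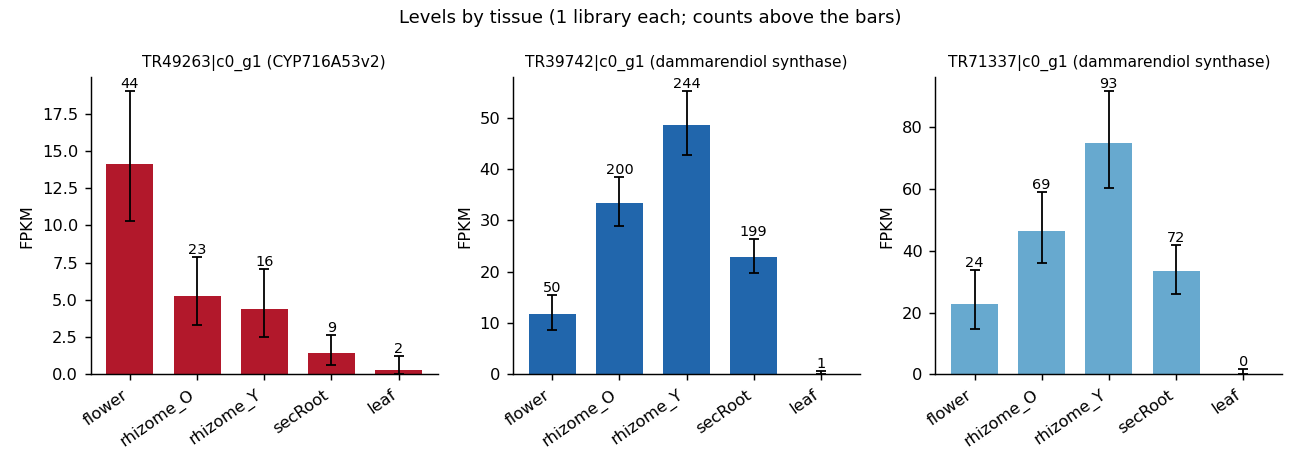
FPKM (y axis) of CYP716A53v2 and of the 2 dammarendiol synthase unigenes in the 5 tissues (x axis), with 1 library per bar, the expected count above each bar and exact 95% Poisson intervals as error bars. The hydroxylase is highest in flower at FPKM 14.13, and both synthases in rhizome_Y at 48.61 and 74.80, although TMM factors that include leaf put rhizome_O above these tissues.

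These folds were read against all unigenes with at least 20 counts in the pair of libraries, of which those past 2-fold are counted. TR49263|c0_g1 alone of the 3 was past 2-fold higher in flower than in rhizome_O, rhizome_Y and secRoot, where 17.8%, 18.7% and 21.8% of all unigenes were. It was past 2-fold higher in flower than in each of the 3 at once, as 10.2% of 30264 unigenes were. Both synthases were past 2-fold lower in flower than in rhizome_O (16.1% of all unigenes) and rhizome_Y (14.7%), and on FPKM neither was against secRoot (19.8%). Against secRoot, TR39742|c0_g1 lay near the limit, at 0.514 on FPKM and past 2-fold lower at 0.485 on TPM. With TMM factors computed without leaf it was 0.471, and with median-of-ratios scaling 0.456. Both synthases were also past 2-fold higher in rhizome_Y than in flower and secRoot at once, a pattern met by 3.75% of all unigenes. The 2 patterns over several tissues were described after the values had been seen. All 3 unigenes were past 2-fold higher in rhizome_Y than in secRoot, against 9.81% of all unigenes, and none was past 2-fold lower in rhizome_O than in rhizome_Y, against 7.40%. The hydroxylase alone of the 3 was past 2-fold higher in rhizome_O than in secRoot, against 10.3%. These counts are on FPKM as deposited and on the ratios alone, not on their intervals. For rhizome_Y over secRoot the intervals of all 3 reached below 2, to 1.76 (TR39742|c0_g1), 1.63 (TR71337|c0_g1) and 1.29 (TR49263|c0_g1). Those of TR49263|c0_g1 also did for flower over rhizome_O (1.59), flower over rhizome_Y (1.79) and rhizome_O over secRoot (1.66). That of TR71337|c0_g1 for flower over rhizome_O reached 0.787. In these cases a fold past 2 was not beyond counting error.

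Against leaf, such folds were common. In flower, all 3 were past 2-fold higher than in leaf, as were 46.2% of all unigenes, and in rhizome_Y both synthases were, as were 46.1%. The hydroxylase, with 16 counts in rhizome_Y and 2 in leaf, had too few to enter the last comparison.

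**Figure D2:**
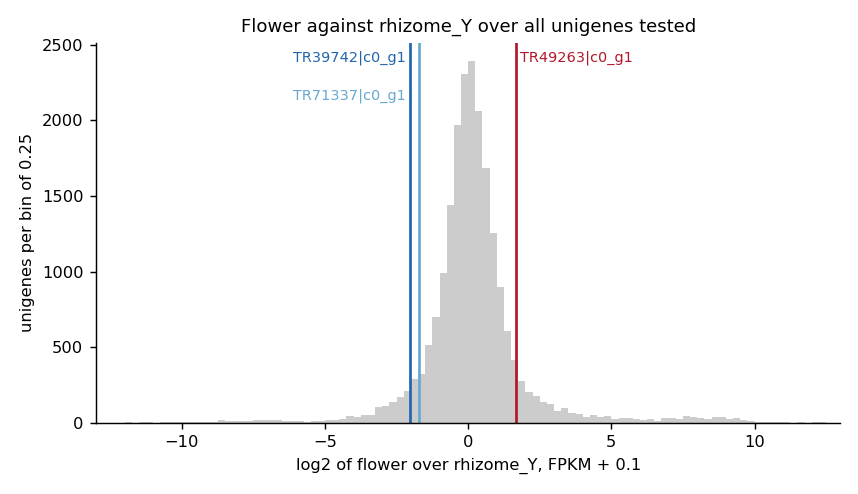
Number of unigenes (y axis, bins of 0.25) by the log2 ratio of flower over rhizome_Y on FPKM + 0.1 (x axis) for the 21073 unigenes with at least 20 counts in both libraries together; lines mark the 3 members. TR49263|c0_g1 lies to the right at 1.67, and TR39742|c0_g1 and TR71337|c0_g1 to the left at -2.04 and -1.72, while the median of all unigenes is 0.08.

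The ratio of hydroxylase to cyclase describes how much transcript of the later step is present for that of the first. As a ratio within a library, it does not depend on how the libraries are scaled to each other. CYP716A53v2 had 0.410 of the summed FPKM of both dammarendiol synthases in flower (0.276 to 0.603), 0.0657 in rhizome_O (0.0409 to 0.101), 0.0353 in rhizome_Y (0.0200 to 0.0582) and 0.0251 in secRoot (0.0113 to 0.0483). The flower interval did not overlap with those of the underground tissues, which overlapped with each other. In leaf the ratio was 2.75, on 2 counts of the hydroxylase and 1 of the synthases, and its interval of 0.143 to 162 holds the value of flower and lies above those of the underground tissues. The leaf value rests on a library that stood apart.

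The ratio in flower was 6.24 times that in rhizome_O (3.42 to 11.5), 11.6 times that in rhizome_Y (6.0 to 23.1) and 16.4 times that in secRoot (7.39 to 39.5). Among the underground tissues, rhizome_O exceeded secRoot by 2.62-fold (1.14 to 6.55). Rhizome_O over rhizome_Y was 1.86 (0.919 to 3.84) and rhizome_Y over secRoot 1.41 (0.576 to 3.68), both within counting error. Numerator and denominator moved in opposite directions between flower and rhizome_Y, with the hydroxylase at 14.13 against 4.36 and the summed synthases at 34.46 against 123.41. Between rhizome_Y and secRoot both moved the same way, with the hydroxylase at 4.36 against 1.41 and the summed synthases at 123.41 against 56.25.

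The height of the ratio depends on the denominator. With TR39742|c0_g1 alone, flower had 1.20 (0.783 to 1.84), rhizome_O 0.157, rhizome_Y 0.0897 and secRoot 0.0617. With TR71337|c0_g1 alone, flower had 0.622 (0.370 to 1.07), rhizome_O 0.113, rhizome_Y 0.0583 and secRoot 0.0422. Flower over rhizome_Y was 13.4 (6.73 to 27.3) with TR39742|c0_g1 and 10.7 (4.88 to 23.7) with TR71337|c0_g1. In flower, the hydroxylase and either synthase were therefore not distinguishable, whereas in each underground tissue the hydroxylase was below either synthase.

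**Figure D3:**
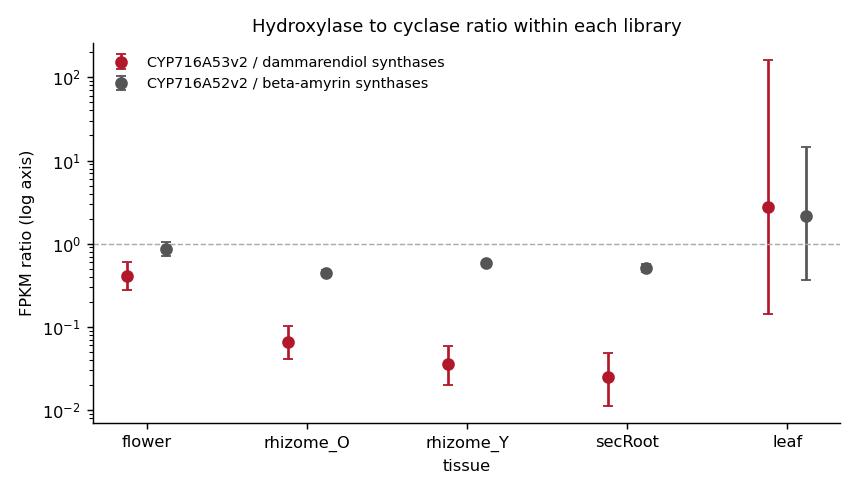
FPKM ratio of hydroxylase to cyclase (y axis, log scale) within each library (x axis) for the dammarane branch and the oleanane branch; bars are exact 95% intervals of the counts and the dashed line marks 1. The dammarane ratio is 0.410 in flower and between 0.0251 and 0.0657 underground, and the leaf points rest on 7 counts or fewer.

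The 2 dammarendiol synthase unigenes kept nearly the same proportion in the 4 tissues in which both were counted. TR71337|c0_g1 had 1.93 times the FPKM of TR39742|c0_g1 in flower (1.14 to 3.20), 1.4 times in rhizome_O (1.04 to 1.84), 1.54 times in rhizome_Y (1.20 to 1.96) and 1.46 times in secRoot (1.10 to 1.92). All 4 ratios thus lay above 1, and their intervals overlapped. Ratios of these ratios ranged from 0.904 for rhizome_O over rhizome_Y (0.618 to 1.32) to 1.4 for flower over rhizome_O (0.756 to 2.50), and the intervals of all 6 pairs held 1. Differences within these intervals were not detectable at this depth.

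In counts the order was the reverse, since TR71337|c0_g1 is the shorter contig. It held 24 of the 74 counts of both synthases in flower (32.4%, exact 95% interval 22.0% to 44.3%), 69 of 269 in rhizome_O (25.7%, 20.5% to 31.3%), 93 of 337 in rhizome_Y (27.6%, 22.9% to 32.7%) and 72 of 271 in secRoot (26.6%, 21.4% to 32.2%). The higher FPKM of TR71337|c0_g1 therefore rests on its effective length, 438.26 bp against 1769.26 bp of TR39742|c0_g1 in rhizome_Y. Whether the contigs are pieces of 1 transcript or copies of a gene was not tested, since sequences were not analysed here, and reads of near-identical copies could be divided between them. All expected counts were whole numbers.

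**Figure D4:**
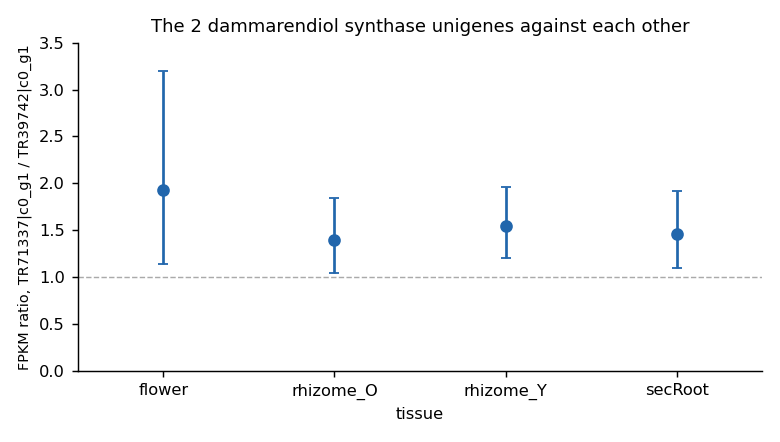
FPKM ratio of TR71337|c0_g1 to TR39742|c0_g1 (y axis) in the 4 tissues in which both had counts (x axis), with exact 95% intervals; the dashed line marks 1. The 4 ratios lie between 1.4 and 1.93 and their intervals overlap.

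On the tissue pattern, each synthase was among the unigenes most like the other. The pattern of a unigene was taken as the share of its summed FPKM in each of the 5 tissues, and the distance between 2 unigenes as the share of one pattern that would have to move between tissues to give the other. It is 0 for equal patterns and 1 for unigenes with no tissue in common. Flower held 10.1% of the FPKM of TR39742|c0_g1, rhizome_O 28.6%, rhizome_Y 41.6% and secRoot 19.6%. For TR71337|c0_g1 these tissues held 12.8%, 26.2%, 42.2% and 18.8%. Their distance was 0.0327, and TR71337|c0_g1 was the 16th nearest to TR39742|c0_g1 among 31801 other unigenes with at least 50 counts over all libraries. The study had clustered unigenes of cytochrome P450, sugar conjugation and the terpenoid backbone, and among the 474 of them that had enough counts each synthase was the nearest of the other. CYP716A53v2, of whose FPKM flower held 55.5%, rhizome_O 20.6%, rhizome_Y 17.1% and secRoot 5.53%, was at 0.466 from TR39742|c0_g1 and 0.439 from TR71337|c0_g1. For TR39742|c0_g1, 61.0% of all other unigenes lay nearer than CYP716A53v2, and for TR71337|c0_g1 60.6% did. Seen from CYP716A53v2, 57.0% lay nearer than TR39742|c0_g1 and 54.1% nearer than TR71337|c0_g1. These shares depended on the measure. Without the leaf library they were 69.9% and 65.8%, and with centred log2(FPKM + 1) as the pattern 46.8% and 51.0%.

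Within their libraries the cyclases ranked high underground on FPKM, and the hydroxylase near the middle or below. Ranked by counts, which do not divide by length, the hydroxylase was above the middle in these tissues, with 77.3% of unigenes lower in rhizome_O, 72.4% in rhizome_Y and 61.7% in secRoot. Ranked on FPKM among unigenes of 500 bp or more, it was below the middle, at 40.3%, 31.4% and 14.4% in the same order. On FPKM in rhizome_Y, TR71337|c0_g1 was at rank 3339 and TR39742|c0_g1 at rank 5227 of 60819 unigenes above FPKM 0, so that 94.5% and 91.4% of these were lower. TR49263|c0_g1 was at rank 34840 there, with 42.7% lower (21.5% to 56.7% at the ends of its FPKM interval). In rhizome_O the share of lower unigenes was 91.9% for TR71337|c0_g1, 88.6% for TR39742|c0_g1 and 52.1% for TR49263|c0_g1 (37.1% to 64.2%). In secRoot it was 89.1%, 84.6% and 13.9% (4.08% to 34.9%) in the same order.

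In flower the 3 unigenes stood closer together than in any underground tissue. TR71337|c0_g1 was at rank 12027 of 59228 (79.7% lower), TR49263|c0_g1 at rank 18542 (68.7%, 60.1% to 75.8%) and TR39742|c0_g1 at rank 21418 (63.8%, 54.5% to 71.2%). Among unigenes of 500 bp or more these shares fell to 66.0%, 51.4% and 46.1%. The hydroxylase was thus above TR39742|c0_g1 in flower, though within counting error, and below it in the 3 underground tissues. In leaf, TR49263|c0_g1 had 5.93% of 63757 unigenes below it and TR39742|c0_g1 0.988%. Among the 897 unigenes that the study had clustered, the hydroxylase was at rank 377 in flower and 593 in rhizome_Y, while TR71337|c0_g1 was at rank 276 in flower and 104 in rhizome_Y.

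**Figure D5:**
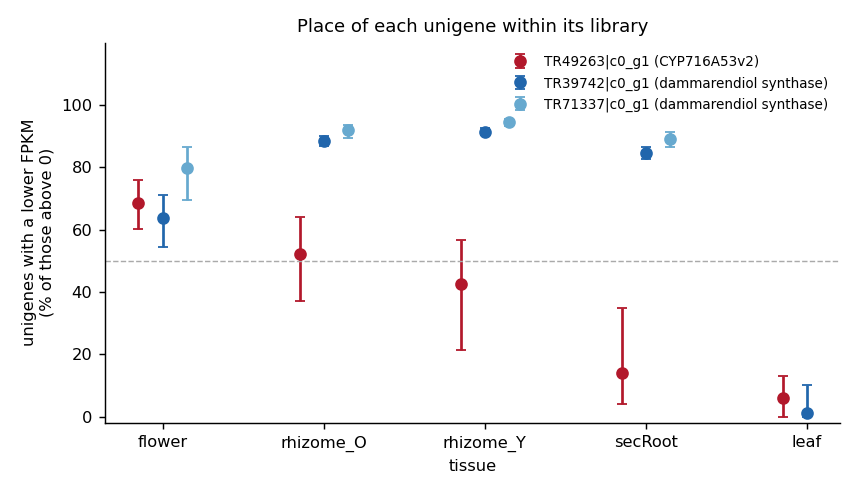
Percent of the unigenes above FPKM 0 in a library that have a lower FPKM (y axis) for each of the 3 unigenes by tissue (x axis); bars give the percent at the ends of the 95% Poisson interval of the FPKM and the dashed line marks the middle of the library. In flower the points lie between 63.8% and 79.7%, and in secRoot the hydroxylase is at 13.9%.

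The oleanane branch is the nearest to set the dammarane branch against, because its cyclase draws on the same oxidosqualene. Of its unigenes, TR8430|c0_g1 and TR76208|c0_g1 (both beta-amyrin synthase) and TR45427|c0_g1 (CYP716A52v2) were used. TR76208|c0_g1 had 11 counts or fewer in every library. The summed dammarendiol synthases had 0.694 of the FPKM of the summed beta-amyrin synthases in flower (0.530 to 0.899), 0.277 in rhizome_O (0.243 to 0.314), 0.298 in rhizome_Y (0.266 to 0.334) and 0.585 in secRoot (0.511 to 0.668). The proportion was lower in both rhizomes than in flower and secRoot, with 0.472 for rhizome_O over secRoot (0.392 to 0.569) and 2.33 for flower over rhizome_Y (1.73 to 3.10). Flower and secRoot were not distinguishable, at a ratio of 1.19 (0.876 to 1.59). The height of this proportion depends on the summing of the dammarendiol synthases, which the intervals do not cover. In flower, TR39742|c0_g1 alone had FPKM 11.75 and both together 34.46, against 49.66 for the beta-amyrin synthases. In rhizome_Y these values were 48.61, 123.41 and 413.99.

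The hydroxylases of the branches were further apart than the cyclases underground. CYP716A53v2 had 0.327 of the FPKM of CYP716A52v2 in flower (0.229 to 0.458), 0.0405 in rhizome_O (0.0255 to 0.0612), 0.0180 in rhizome_Y (0.0102 to 0.0294) and 0.0289 in secRoot (0.0131 to 0.0554). In rhizome_Y this was FPKM 4.36 against 242.30, and in flower 14.13 against 43.21. CYP716A52v2 in flower stood at 0.178 of rhizome_Y (0.151 to 0.210) and was not distinguishable from secRoot, at 0.886 (0.735 to 1.06), whereas CYP716A53v2 was higher in flower than in both.

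The hydroxylase to cyclase ratio of the oleanane branch spanned a narrower range. The ratios of the branches span unlike steps. In *P. ginseng*, CYP716A52v2 oxidizes the product of its cyclase, whereas CYP716A53v2 acts after a further oxidation, whose unigene was not analysed here. CYP716A52v2 had 0.870 of the FPKM of both beta-amyrin synthases in flower (0.714 to 1.06), 0.449 in rhizome_O (0.412 to 0.488), 0.585 in rhizome_Y (0.546 to 0.627) and 0.508 in secRoot (0.452 to 0.570). In leaf it was 2.16, on 4 and 3 counts (0.365 to 14.7). Among the 4 other tissues flower again had the highest ratio, at 1.49 times rhizome_Y (1.21 to 1.83), against 11.6 times in the dammarane branch. The dammarane ratio was 0.471 of the oleanane ratio in flower (0.302 to 0.730), 0.146 in rhizome_O (0.0905 to 0.227), 0.0604 in rhizome_Y (0.0340 to 0.10) and 0.0494 in secRoot (0.0221 to 0.0964). The interval of flower did not overlap with those of the 3 underground tissues. These values use the summed dammarendiol synthases. With TR39742|c0_g1 alone the dammarane ratio in flower was 1.20 (0.783 to 1.84), and with TR71337|c0_g1 alone 0.622 (0.370 to 1.07). Both intervals overlap with that of the oleanane ratio, so the order of the branches in flower depends on the summing. Underground, either synthase alone gave at most 0.157, below the oleanane ratios of 0.449 or more.

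Upstream, 13 labelled unigenes of the terpenoid backbone were followed, from acetyl-CoA acetyltransferase to squalene synthase. None was labelled squalene epoxidase. The list is not the whole pathway and was drawn from unigenes named in earlier results of these data, so it is not independent of their levels. Highest in leaf were TR61952|c0_g1, labelled acetyl-CoA acetyltransferase, and TR59102|c0_g1, labelled HMG-CoA synthase. They had FPKM 46.92 and 25.64 in leaf and 0.26 or less in the other tissues. Other unigenes with these labels, TR54322|c1_g1 and TR51183|c0_g1, had 0.63 and 0.27 in leaf and 45.54 or more elsewhere. Whether leaf holds other unigenes of the members' enzymes was not tested. Over the 4 tissues other than leaf, 11 of the 13 had at least 20 counts. Of these, 6 were highest on FPKM in rhizome_Y like the dammarendiol synthases, 3 in flower like CYP716A53v2 and 2 in rhizome_O. Of all 30264 unigenes with as many counts, 17.5% were highest in rhizome_Y, 35% in flower, 24.0% in rhizome_O and 23.5% in secRoot. TR51426|c3_g1, labelled farnesyl diphosphate synthase, whose product is joined to squalene, had FPKM 39.73 in flower, against 71.61 for rhizome_O, 130.97 for rhizome_Y, 101.02 for secRoot and 0.17 for leaf. Of HMG-CoA reductase, which forms mevalonate, TR60511|c0_g1 and TR68099|c2_g1, together with isopentenyl diphosphate isomerase (TR61651|c0_g1), which interconverts the building blocks of terpenes, were the 3 highest in flower. Another HMG-CoA reductase unigene, TR57974|c2_g2, was at FPKM 7.88 in flower, against 13.37 in rhizome_Y, where it was highest.

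Of 10 listed unigenes with at least 20 counts in flower and rhizome_Y, 6 were past 2-fold lower in flower and 1 past 2-fold higher, where 14.7% and 18.7% of all unigenes were. Their median log2 ratio of flower over rhizome_Y, on FPKM + 0.1, was -1.32, against 0.08 over all 21073 unigenes, while the members had 1.67 (CYP716A53v2), -2.04 (TR39742|c0_g1) and -1.72 (TR71337|c0_g1). For rhizome_Y over secRoot, 1 of 10 was past 2-fold higher and none past 2-fold lower, where 9.81% and 11.9% of all unigenes were, with a median of 0.45 against -0.03 over all unigenes and 1.56, 1.09 and 1.16 for the members in the same order. For flower over secRoot the list had a median of -1.01 against 0.06 over all unigenes, and the members had 3.24, -0.95 and -0.55.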

How the data were processed

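Poly(A) RNA reads of 5 tissues were cleaned by the authors (Trimmomatic), pooled for 1 Trinity assembly, and counted library by library against its contigs (Bowtie, RSEM). The expected counts deposited by the authors are read pairs per contig, and 0 of them were fractional. The FPKM deposited by the authors divide these by effective length and depth, and the TPM deposited by the authors scale each library to the same sum. From these files, values of a unigene were summed over its contigs. Intervals are exact 95% Poisson (FPKM) or conditional (ratios) intervals of the counts, scaled to the FPKM; ratios of ratios used the conditional odds ratio. Summed unigenes were taken at their observed mix. A fold of 2 and at least 20 counts in the pair defined the background, where a level of 0 counts as past 2-fold, and 3 counts the limit of a count of 0. With 1 library per tissue, no test was made. Counts per library were 2403221 (flower), 3382436 (rhizome_O), 2836971 (rhizome_Y), 4920387 (secRoot) and 4614642 (leaf), which limits precision.

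Members and lists were chosen with earlier results of these data known. Unigenes that could be named were the members, the 3 oleanane unigenes, the 13 upstream unigenes, which like the oleanane ones bear the labels given them in earlier results of these data, and the 3 nearest to each member in pattern among all unigenes and among the clustered ones, of which only the identifiers were used. Alternatives were TPM, TMM and median-of-ratios scaling, counts in place of FPKM, the most abundant contig, single synthases, other sets for ranks and background, and other measures of pattern. The ratio intervals and the pattern distance were run on simulated Poisson counts, which hold counting error only. For the pattern distance, unigenes with more counts than TR71337|c0_g1 or TR49263|c0_g1 held were used, on shares of counts and not of FPKM. That run therefore does not cover these members. Software was edgeR 4.0.16 (TMM factors only) in R 4.3.3, and scipy 1.17.1, pandas 2.3.3, matplotlib 3.10.9 and numpy 2.4.6 in Python 3.11.15. The FPKM table of the series was not used here.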

Additional observations from a re-analysis of the deposited data

How the results depend on the processing

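No paired analysis was possible because each tissue has 1 library. With TPM, with median-of-ratios scaling and with the contig with the most counts, the 18 ratios between flower, rhizome_O, rhizome_Y and secRoot stayed within their counting intervals; each member has 1 contig, so the last could not change them. Flower over secRoot for TR39742|c0_g1, at 0.514 on FPKM, still passed 2-fold lower, at 0.485 with TPM and 0.456 with median-of-ratios scaling. TMM factors over all 5 libraries ranged from 0.0651 (leaf) to 5.23 (flower) and shifted all unigenes by between -3.57 and 2.72 on the log2 scale. They turned rhizome_O over rhizome_Y to 4.53 for TR39742|c0_g1 and 4.1 for TR71337|c0_g1, and flower over rhizome_O to 0.227 for TR49263|c0_g1. They also moved flower over rhizome_O to 0.0297 and 0.0412, flower over rhizome_Y to 0.134 and 0.169, flower over secRoot to 0.226 and 0.299 and rhizome_O over secRoot to 7.61 and 7.25 for TR39742|c0_g1 and TR71337|c0_g1 in this order, rhizome_Y over secRoot to 1.68 for TR39742|c0_g1, and for TR49263|c0_g1 flower over secRoot to 4.40, rhizome_O over rhizome_Y to 7.94 and rhizome_O over secRoot to 19.4. In a setting chosen after seeing the data, factors computed without the leaf library were 0.953 to 1.05, and all 18 ratios were within their intervals; these factors and the median-of-ratios ones shifted all unigenes by between -0.17 and 0.01. Of all unigenes past 2-fold, those higher in rhizome_O than in rhizome_Y were 55.2%, against 42.1% with these factors and 99.5% with leaf; for rhizome_O over secRoot the shares were 49.4%, 39.1% and 99.4% (38.2% with median-of-ratios factors). With leaf, the shares higher in flower were 3.05% against rhizome_O, 18.3% against rhizome_Y and 12.8% against secRoot, where FPKM gave 52.6%, 56.0% and 52.4%, and for rhizome_Y over secRoot 22.1%, where FPKM gave 45.2%. Ratios within a library do not use these factors.

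The hydroxylase to cyclase ratio moved beyond its interval with TR39742|c0_g1 alone for flower (1.20), rhizome_O (0.157), rhizome_Y (0.0897) and secRoot (0.0617), and with TR71337|c0_g1 alone in flower (0.622), rhizome_O (0.113) and rhizome_Y (0.0583); a smaller denominator raises it by construction. In counts, where no length is divided out, TR71337|c0_g1 over TR39742|c0_g1 was 0.480 for flower, 0.345 for rhizome_O, 0.381 for rhizome_Y and 0.362 for secRoot. With centred log2(FPKM + 1) as the pattern, 0.579% of unigenes were nearer to TR39742|c0_g1 than TR71337|c0_g1 was, against 0.0472%, and 0.673% the other way, against 0.0755%. Ranks moved beyond their intervals in 12 of 14 cases by counts, in 10 of 14 among unigenes of 500 bp or more and in 9 of 14 among contigs. With at least 100 counts in the pair, 6.39% of unigenes were past 2-fold higher in rhizome_O than in secRoot. The hydroxylase held 94 counts in all, which limits every ratio it enters.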

Other observations

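The unigenes nearest in tissue pattern to the members were taken by identifier, without annotation, and their values alone are given. Nearest to TR49263|c0_g1 was TR46465|c0_g1 at a distance of 0.0265, with FPKM 50.75 for flower, 18.33 for rhizome_O, 16.31 for rhizome_Y, 3.76 for secRoot and 0 for leaf, on 51 counts. TR43031|c0_g1 (0.0273, 50 counts) and TR67039|c1_g2 (0.0325, 168 counts) came next. Among the 474 clustered unigenes with at least 50 counts, the nearest was TR58704|c0_g1 at 0.0589, with FPKM 89.40 for flower, 36.26 for rhizome_O, 26.46 for rhizome_Y, 18.42 for secRoot and 0.20 for leaf, on 551 counts.

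Nearest to TR39742|c0_g1 was TR52365|c0_g1 at 0.0112 (79 counts), and nearest to TR71337|c0_g1 was TR53820|c1_g2 at 0.0105 (280 counts). Among the clustered unigenes, TR65802|c0_g1 was near to both synthases, at 0.0386 and 0.0351, with FPKM 6.93 for flower, 16.30 for rhizome_O, 24.95 for rhizome_Y, 9.20 for secRoot and 0 for leaf. TR65577|c1_g1, at 0.0346 from TR71337|c0_g1, was more abundant, with FPKM 119.94 in flower and 392.06 in rhizome_Y. Whether the order among the nearest exceeds counting error was not tested.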
